A study of Mus musculus with 16 samples.

Results

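The genes described here carry out cell division and DNA replication: cyclins and their kinases, E2F transcription factors, origin licensing factors, proteins of the replication fork, and proteins of the kinetochore, the centromere and the mitotic spindle. They were taken by name alone, as the probes of a 2-colour mouse cDNA array whose single annotated gene symbol belongs to the families Ccna to Ccnh, Cdc, Cdk, Cks, Mcm, Orc, Cenp, Aurk, Bub, E2f, Pola, Pold, Pole, Prim, Rfc, Rpa and Haus, or is Pcna, Mki67, Top2a, Plk1, Rrm1 or Rrm2. The rule found 139 probes of 101 genes, among 9930 genes with a single symbol on the array. Of these, 85 genes (109 probes) had enough values to be tested, and also 85 with placeholder cells kept as values. The filter counts missing values, among them cells that hold a fixed placeholder, and does not otherwise use the ratio. The 16 genes that fell short of it were Bub1b, Ccna1, Ccnd2, Cdc37l1, Cdc45, Cdk14, Cenpm, E2f1, Haus7, Orc3, Orc6, Pold3, Pole, Pole4, Rfc1 and Rfc4, and the symbols Mki67, Ccnb1 and Ccnd1 were not analysed here. Name families also bring in genes whose main work lies elsewhere, such as effectors of the GTPase Cdc42 and kinases of the transcription machinery, and these were kept as classes of their own.

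The cells were NIH3T3, an immortalised mouse fibroblast line, with or without a transfected Erbb2, a receptor tyrosine kinase and oncogene. Each array set azacytidine-treated cells against untreated cells of the same line, so the untreated RNA is the second channel and not a separate sample. The groups were Erbb2-transfected cells at 10 µM azacytidine (8 arrays), Erbb2-transfected cells at 5 µM (4 arrays) and untransfected NIH3T3 cells at 10 µM (4 arrays). Dyes were exchanged in every group, with treated cells in Cy5 on 50.0% of its arrays and in Cy3 on the rest. The sources used here give no treatment time, Erbb2 construct or promoter, do not say whether the transfected line was a single clone, and name no separate cultures behind the arrays. The p-values therefore reflect array-to-array spread, which may be technical.

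Cells commit to division in G1, when cyclin D and cyclin E kinases release E2F factors that switch on the genes for DNA synthesis. Licensed origins, marked by the Mcm helicase, then fire in S phase, and a fork of polymerases, the sliding clamp and its loader copies the DNA. Cdk1 with its cyclins and Cks partners drives entry into mitosis, where kinetochores tie chromosomes to the spindle. Azacytidine is a cytosine analogue that cells build into RNA and, after reduction by ribonucleotide reductase, into DNA during replication, where it traps DNA methyltransferases and leads to loss of methyl groups from CpG sites.

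Values below are log2 ratios, treated over untreated, where a value above 0 means more RNA in the treated cells. The deposited ratios do not state which dye is on top. They were read as Cy5 over Cy3, a common convention, and arrays with treated RNA in Cy3 were turned. Same-dye arrays of a group correlated weakly, with mean r of 0.135 (untransfected), 0.0717 (Erbb2, 5 µM) and 0.0306 (Erbb2, 10 µM). Before turning, a response shared by arrays with exchanged dyes would give a negative r. Such pairs had means of -0.0857, -0.00604 and 0.00353 in that order. Only the untransfected group had all of them below 0 (-0.106 to -0.0611), so turning had little support from the Erbb2 pairs. Each array's centring offset, read from a fixed placeholder value, lay below 0 on 16 of 16 arrays whichever dye the treated RNA had, which fits ratios taken by dye throughout but does not tell which dye is on top. The direction is therefore not settled: with Cy3 over Cy5 every sign below turns, in all groups and differences, while sizes, errors and p-values stay. The words rose, fell, higher and lower hold for the Cy5 over Cy3 reading. On the untransfected arrays both channels carry the same dye label, so the label of the channel that names the treated cells was used, and if that label is wrong the signs of this group alone turn against those of the others. Arrays held 16153 to 18507 usable ratios of 20355 probes, and no signal intensities, so a level of expression cannot be given. In whole cultures, fewer cells in a phase of the cycle and less RNA per cell cannot be told apart.

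Across the 85 genes few calls were made, and 4 genes passed an adjusted p of 0.05 over all 12420 features in any group. In simulated data most changes of log2 0.5 or 1 were missed, so a gene that did not pass may still have changed by such sizes. Pcna, the sliding clamp of the replication fork, fell in Erbb2 cells at 10 µM (-0.48 ± 0.09, SE, n = 8). Haus4, a subunit of the augmin complex that seeds branched spindle microtubules, rose in Erbb2 cells at 5 µM (0.69 ± 0.13, n = 4). Cks2, a small partner of cyclin-dependent kinases, and Cenps, a histone-fold protein of the centromere, rose in untransfected cells at 10 µM (1.19 ± 0.18, n = 4, and 1.57 ± 0.36, n = 3). Read against the background, 1 of 85 members passed in Erbb2 cells at 10 µM, where 1.26% of all features did, 1 of 85 in Erbb2 cells at 5 µM, where 0.209% did, and 2 of 85 in untransfected cells, where 2.73% did. By direction, 0.862% of features were called lower and 0.403% higher in Erbb2 cells at 10 µM, 0.0322% lower and 0.177% higher at 5 µM, and 2.13% lower and 0.596% higher in untransfected cells. With Cy3 over Cy5, Pcna would be the gene that rose, and Haus4, Cks2 and Cenps those that fell. With 1 or 2 members a group, the counts do not set these genes apart from the other features.

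The promoters of these 4 genes are shown because azacytidine is known for its effect on methylation at CpG sites, and so that known cell cycle motifs could be looked for in them. Sequences are from RefSeq on build GRCm38.p6, run 5′ to 3′ on the gene's strand from 250 bases before to 50 bases after the annotated start, and capitals mark motif matches. The windows are chr2:132253131-132253430 on the minus strand for Pcna, chr14:54554312-54554611 on the minus strand for Haus4, chr13:51644982-51645281 on the plus strand for Cks2 and chr4:149137551-149137850 on the minus strand for Cenps.
Pcna: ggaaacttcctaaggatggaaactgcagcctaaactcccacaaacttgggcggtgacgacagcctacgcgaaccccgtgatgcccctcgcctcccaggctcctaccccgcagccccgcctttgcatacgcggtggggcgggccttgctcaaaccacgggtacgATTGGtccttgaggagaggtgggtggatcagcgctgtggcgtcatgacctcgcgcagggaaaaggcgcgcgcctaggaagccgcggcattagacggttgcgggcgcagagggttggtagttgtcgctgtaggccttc
Haus4: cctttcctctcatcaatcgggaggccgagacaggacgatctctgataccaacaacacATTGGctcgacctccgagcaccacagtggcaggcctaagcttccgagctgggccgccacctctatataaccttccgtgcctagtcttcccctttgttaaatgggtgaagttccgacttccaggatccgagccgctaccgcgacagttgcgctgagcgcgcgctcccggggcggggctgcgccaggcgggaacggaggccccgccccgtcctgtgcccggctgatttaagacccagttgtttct
Cks2: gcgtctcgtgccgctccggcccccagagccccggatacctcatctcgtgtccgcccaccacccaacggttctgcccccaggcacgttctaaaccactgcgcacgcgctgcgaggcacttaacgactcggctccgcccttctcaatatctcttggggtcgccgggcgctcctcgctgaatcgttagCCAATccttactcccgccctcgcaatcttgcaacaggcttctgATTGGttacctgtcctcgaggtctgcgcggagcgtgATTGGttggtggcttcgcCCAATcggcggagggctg
Cenps: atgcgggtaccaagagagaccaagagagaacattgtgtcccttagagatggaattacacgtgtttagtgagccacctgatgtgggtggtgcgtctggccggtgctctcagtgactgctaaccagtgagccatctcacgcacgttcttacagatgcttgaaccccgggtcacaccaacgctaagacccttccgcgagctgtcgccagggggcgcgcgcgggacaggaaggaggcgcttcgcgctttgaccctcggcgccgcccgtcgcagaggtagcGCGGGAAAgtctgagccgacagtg
They hold 26 CpG sites for Pcna, 25 for Haus4, 30 for Cks2 and 26 for Cenps. Over the 98 promoters found for 88 of the 101 genes the median was 23.5 CpG sites, and over all 32851 promoters of the reference it was 7. Motifs were searched on both strands as exact letters: TTTCCCGC, TTTGGCGC, TTTCGCGC or TTTGCCGC for E2F, CCAAT for the CCAAT box, and TTTGAA or TTCGAA for the CHR element of late cell cycle genes. An E2F match lay in 18 member promoters (18.4%), against 2.26% of all promoters, a CCAAT box in 55 (56.1%), against 37.4%, and a CHR in 24 (24.5%), against 19.2%. Among the 4 shown, Cks2 has 4 CCAAT boxes, Pcna and Haus4 have 1 each, and Cenps has 1 E2F match. The arrays do not measure methylation or binding, so these matches describe the windows and nothing more.

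Pcna had a value on all 16 arrays, as the mean of 2 probes. In Erbb2 cells at 10 µM its log2 ratios ran from -0.60 over a median of -0.50 to -0.35. At 5 µM in these cells they were -0.15, -0.08, -0.21 and -0.29, and in untransfected cells 0.17, 0.34, 0.02 and -0.07. Every array at 10 µM in the Erbb2 cells thus lay below 0 and below every array of the other groups. The fitted change there corresponds to 1.40-fold less Pcna RNA, with a 95% interval of the log2 ratio from -0.68 to -0.29 and an adjusted p of 0.0154. The adjusted p was 1 at 5 µM (-0.18 ± 0.13) and 0.941 in untransfected cells (0.11 ± 0.13).

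The Pcna probes moved by different amounts. Probe 4818 fell by 0.68 on the log2 scale in Erbb2 cells at 10 µM (SE 0.10, adjusted p = 0.00185 with probes kept apart), with arrays from -0.82 to -0.42. Probe 10276 had -0.28 ± 0.11 (adjusted p = 0.317), with arrays from -0.48 to -0.02. Both lay below 0 on 8 of 8 arrays, so they shared the direction and not the size. Probe 10276 overlapped both other groups, with arrays from -0.49 to 0.19 at 5 µM and from -0.43 to 0.47 in untransfected cells. Only the mean and probe 4818 were thus below every array of the other groups. Without array 1 of this group the adjusted p of Pcna was 0.0562, without array 4 it was 0.0522, and with the group fitted on its own arrays 0.27, while the log2 ratio stayed between -0.51 and -0.46 whichever array was left out.

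**Figure D1:**
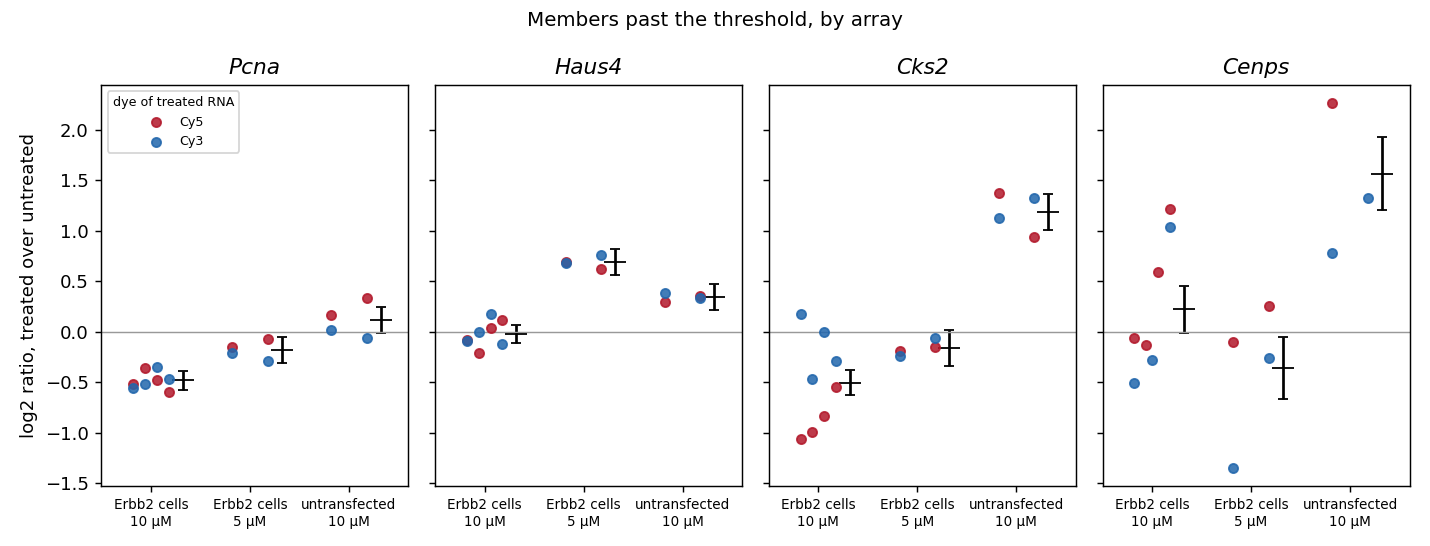
Log2 ratio of treated over untreated cells on each array (points, coloured by the dye of the treated RNA) for the 4 genes past the threshold, with the fitted value ± SE in black. Pcna lies below 0 on 8 of 8 arrays of Erbb2 cells at 10 µM, Haus4 between 0.62 and 0.76 in Erbb2 cells at 5 µM, and Cks2 between 0.94 and 1.37 in untransfected cells, where Cenps has 3 values.

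Other genes of the fork and of nucleotide supply did not pass in any group. Pold2, an accessory subunit of DNA polymerase delta, was the other member below 0 on all 8 arrays of Erbb2 cells at 10 µM, from -0.83 over a median of -0.58 to -0.09 (fitted -0.53 ± 0.17, adjusted p = 0.223). Members below 0 on every array there were 2 of 57 with all values (3.51%), against 2.6% of all such features. The clamp loader subunit Rfc5 was the lowest of the class in the same group (-0.84 ± 0.29, n = 7) and the highest in untransfected cells (1.34 ± 0.39). Its arrays spread from -2.60 to 1.24 in the Erbb2 cells at 10 µM, which is wider than its fitted change.

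Ribonucleotide reductase, which makes deoxynucleotides and also reduces the drug, showed no change past the threshold. Its large subunit Rrm1 had 0.45 ± 0.27 in Erbb2 cells at 10 µM, 0.03 ± 0.38 in those at 5 µM and 0.23 ± 0.38 in untransfected cells. The first of these rests on array 3, with 3.13, since the other 7 arrays lay between -0.42 and 0.29. The small subunit Rrm2 had 0.08 ± 0.36 in Erbb2 cells at 10 µM, -0.05 ± 0.52 in those at 5 µM and 1.10 ± 0.52 in untransfected cells, and its 4 untransfected arrays were all above 0, at 0.87, 1.11, 1.79 and 0.61. Top2a, which untangles replicated DNA, had 0.15 ± 0.37 in Erbb2 cells at 10 µM (n = 7), -0.22 ± 0.49 in those at 5 µM and 0.12 ± 0.49 in untransfected cells. On the untransfected arrays it stood at 1.16, 0.97, -2.57 and 0.91, so array 3 alone was low.

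Other fork genes marked the ends of the class. Rpa1, the large subunit of the single-strand binding protein, was highest at 5 µM (1.44 ± 0.81, n = 3), where 1 array at 5.20 stood against 2 at -0.23 and -0.21. Prim1, the catalytic subunit of primase, was lowest there (-0.56 ± 0.51, n = 3). Pola2, a subunit of the polymerase alpha complex that starts each strand, was lowest in untransfected cells (-0.19 ± 0.16). Over the class, 9 of 13 genes lay above 0 in Erbb2 cells at 10 µM, 8 of 13 in those at 5 µM and 12 of 13 in untransfected cells, with medians of 0.10, 0.06 and 0.34.

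Of 9 origin licensing genes 8 had lower fitted values in Erbb2 cells at 10 µM than in untransfected cells and Orc5 a higher one, with class medians of 0.0026 and 0.41. None of these values or differences passed the threshold. The Mcm2 to Mcm7 proteins form the ring of the replicative helicase. Of their 6 genes 3 had fitted log2 ratios above 0 in Erbb2 cells at 10 µM and 3 at 5 µM, with medians of -0.04 and -0.13. In untransfected cells all 6 had fitted log2 ratios above 0: Mcm2 0.41 ± 0.61, Mcm3 0.81 ± 0.39, Mcm4 0.65 ± 0.23, Mcm5 0.88 ± 0.78, Mcm6 1.11 ± 0.39 and Mcm7 0.07 ± 0.17, with a median of 0.73. The smallest adjusted p of these genes in untransfected cells was 0.214, for Mcm6, so none is called.

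Single arrays show how even these values were. Mcm3 ran from -0.65 over a median of 0.45 to 1.85 in Erbb2 cells at 10 µM and had -0.82, -2.17, 0.01 and -0.50 at 5 µM, against 0.75, 0.93, 0.83 and 0.74 in untransfected cells. Mcm4 had 0.18, 0.90, 0.75 and 0.75 in untransfected cells. Mcm6 was less even there, at 2.64, -0.27, 1.32 and 0.74. Mcm5 had 2 low arrays in Erbb2 cells at 10 µM, -5.06 and -2.35, while the other 6 lay between 0.25 and 1.94. At the ends of the class stood Mcm3 (0.47 ± 0.28) and Mcm5 (-0.36 ± 0.55) in Erbb2 cells at 10 µM, Mcm4 (0.36 ± 0.23) and Mcm3 (-0.87 ± 0.39) at 5 µM, and Mcm6 and the origin recognition subunit Orc5 (-0.15 ± 0.35) in untransfected cells.

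Of the G1 and S cyclins and kinases none passed. Cdk2, the kinase of cyclins E and A, had 0.08 ± 0.34 in Erbb2 cells at 10 µM and 1.36 ± 0.48 in untransfected cells, the last from arrays at -0.44, 0.89, 3.24 and 1.73. Cdk6, a cyclin D kinase, ranged from -4.21 to 2.27 on the Erbb2 arrays at 10 µM (n = 7), and was above 0 on 4 of 4 untransfected arrays (0.96, 0.75, 0.92 and 1.69), with a fitted value of 1.08 ± 0.67 there. Cdk4, the other cyclin D kinase, had fitted values near 0 in each group, at -0.11 ± 0.20, -0.22 ± 0.28 and -0.10 ± 0.28 over Erbb2 cells at 10 µM, Erbb2 cells at 5 µM and untransfected cells. Ccnd3, a D-type cyclin, was the highest of the class in Erbb2 cells at 10 µM (0.81 ± 0.41), with 3 arrays above 2 and 3 below 0.

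The E2F factors, which switch replication genes on or off, did not pass in any group. E2f2, an activating member, had 0.90 ± 0.39 at 5 µM in the Erbb2 cells (adjusted p = 0.727), where 1 array at 2.97 stood apart from -0.16, 0.04 and 0.76. E2f3, also an activator, was highest in Erbb2 cells at 10 µM (0.49 ± 0.50, n = 6) and in untransfected cells (0.23 ± 0.61). The repressive E2f6 and E2f4 were lowest in the same groups, at -0.58 ± 0.30 and -0.27 ± 0.21. This class had 2 of 4 genes above 0 in Erbb2 cells at 10 µM (median -0.04), 3 of 4 in those at 5 µM (0.43) and 1 of 4 in untransfected cells (-0.10).

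Among regulators of G2 and mitosis Cks2 stood out. Its Erbb2 arrays at 10 µM ran from -1.06 over a median of -0.51 to 0.18, and those at 5 µM were at -0.19, -0.15, -0.24 and -0.06. The untransfected arrays were at 1.37, 0.94, 1.12 and 1.33. Every Erbb2 array lay below all 4 untransfected arrays. The fitted value in Erbb2 cells at 10 µM was -0.50 ± 0.13 (adjusted p = 0.0743), with the 4 arrays of treated RNA in Cy5 all lower than the 4 in Cy3. The fitted change in untransfected cells was 2.28-fold up (95% interval of the log2 ratio 0.81 to 1.57, adjusted p = 0.00159). If the dye label of the untransfected arrays is wrong, the Cks2 value there is -1.19.

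Cdk1, the kinase that Cks2 binds, had a like order of values without passing. It ran from -2.37 over a median of -0.21 to 0.18 in Erbb2 cells at 10 µM, with 7 of 8 arrays below 0. The untransfected arrays were at 1.30, 0.80, 0.98 and 0.87 (fitted 0.99 ± 0.29, adjusted p = 0.105). Ccna2, the cyclin of S phase and early mitosis, had 0.39 ± 0.18 in Erbb2 cells at 10 µM, against 1.06, 0.92, 0.78 and 0.78 on the untransfected arrays (0.89 ± 0.26, adjusted p = 0.101). Cks1b, the relative of Cks2, also had lower fitted values in Erbb2 than in untransfected cells, but did not rise evenly in the latter. It was the lowest of the class in Erbb2 cells, at -0.89 ± 0.39 at 10 µM (7 of 8 arrays below 0) and -0.96 ± 0.55 at 5 µM (4 of 4 below 0). Its 0.13 ± 0.55 in untransfected cells rests on array 4 at 3.16, since the other 3 arrays lay below 0.

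The Cdc25 phosphatases, which activate the kinases, did not pass as gene means. Cdc25a had -0.42 ± 0.15 in Erbb2 cells at 10 µM, -0.17 ± 0.22 in those at 5 µM and -0.31 ± 0.22 in untransfected cells, and Cdc25c stood at the top of the class at 5 µM with 0.13 ± 0.48. The mean of Cdc25a joins unlike probes. Probe 7658 was below 0 on 16 of 16 arrays, from -0.73 to -0.40 in Erbb2 cells at 10 µM, from -0.57 to -0.50 at 5 µM and from -0.84 to -0.53 in untransfected cells. With probes kept apart it fell by 0.52 at 10 µM in the Erbb2 cells (adjusted p = 0.0108) and by 0.68 in untransfected cells (adjusted p = 0.00818), while the other probe, 15431, had -0.24 and 0.07. Over the class, 3 of 11 genes were above 0 in Erbb2 cells at 10 µM and at 5 µM, and 8 of 11 in untransfected cells, with medians of -0.42, -0.17 and 0.24.

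Genes of the kinetochore and spindle held the other calls. Haus4 was very even: -0.22 over a median of -0.05 to 0.17 in Erbb2 cells at 10 µM, 0.69, 0.62, 0.68 and 0.76 at 5 µM, and 0.29, 0.35, 0.38 and 0.34 in untransfected cells. The 3 groups did not overlap. The rise at 5 µM was 1.61-fold (95% interval of the log2 ratio 0.41 to 0.96, adjusted p = 0.0451), and the untransfected value of 0.34 ± 0.13 had an adjusted p of 0.27. The call at 5 µM was at the edge of the threshold: leaving out any 1 of the 16 arrays gave an adjusted p between 0.0528 and 0.256, with a log2 ratio between 0.67 and 0.71.

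Cenps ran from -0.51 over a median of -0.06 to 1.22 on the Erbb2 arrays at 10 µM (n = 7), and at 5 µM had -0.10, 0.25, -1.35 and -0.26. It had 2.27, 0.78 and 1.32 on 3 untransfected arrays and no value on array 2. The groups overlapped between 0.78 and 1.22. The fitted rise in untransfected cells was 2.96-fold (adjusted p = 0.0345), and the adjusted p was 0.302, 0.0642 and 0.16 without array 1, 3 or 4 of that group. It was 0.0547 and 0.0526 without array 1 or 2 of Erbb2 cells at 5 µM, and 0.0507 without array 7 of Erbb2 cells at 10 µM.

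Among the mitotic kinases, single arrays stood far from the rest. Aurkb, the kinase that corrects kinetochore attachment, led the class in Erbb2 cells at both doses (0.93 ± 0.54, n = 7, and 0.89 ± 0.71). At 10 µM 1 array stood at 5.12 and the others between -0.01 and 0.55, while at 5 µM the arrays were even, at 0.93, 0.89, 0.70 and 1.04. In untransfected cells 1 array at 3.20 stood above 0.89, 0.30 and 0.32. Plk1, a kinase of mitotic entry, had 0.24 ± 0.38, 0.38 ± 0.47 and 0.30 ± 0.47 over Erbb2 cells at 10 µM, Erbb2 cells at 5 µM and untransfected cells.

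The lower ends of the class were Cenpu (-0.86 ± 0.53, n = 7) in Erbb2 cells at 10 µM, Cenpt (-0.65 ± 0.98, n = 3) at 5 µM and Cenpb (-0.16 ± 0.26) in untransfected cells, all centromere proteins. Over all classes, 20 tested members had several kept probes. Their probes shared 1 sign for 11 of these genes in untransfected cells. In Erbb2 cells this held for 12 at the lower dose and 10 at the higher. The remaining gene means, which also enter the class medians, joined probes of opposite sign. Bub3, a checkpoint protein, showed how probes can differ. Its probe 15591 ran from 0.86 to 1.21 on the untransfected arrays and rose when probes were kept apart (1.02 ± 0.18, adjusted p = 0.0045). Probe 8358 had -0.01 ± 0.52 there. Of the class, 10 of 19 genes were above 0 in Erbb2 cells at 10 µM, 12 of 19 in those at 5 µM and 17 of 19 in untransfected cells, with medians of 0.02, 0.03 and 0.45.

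**Figure D2:**
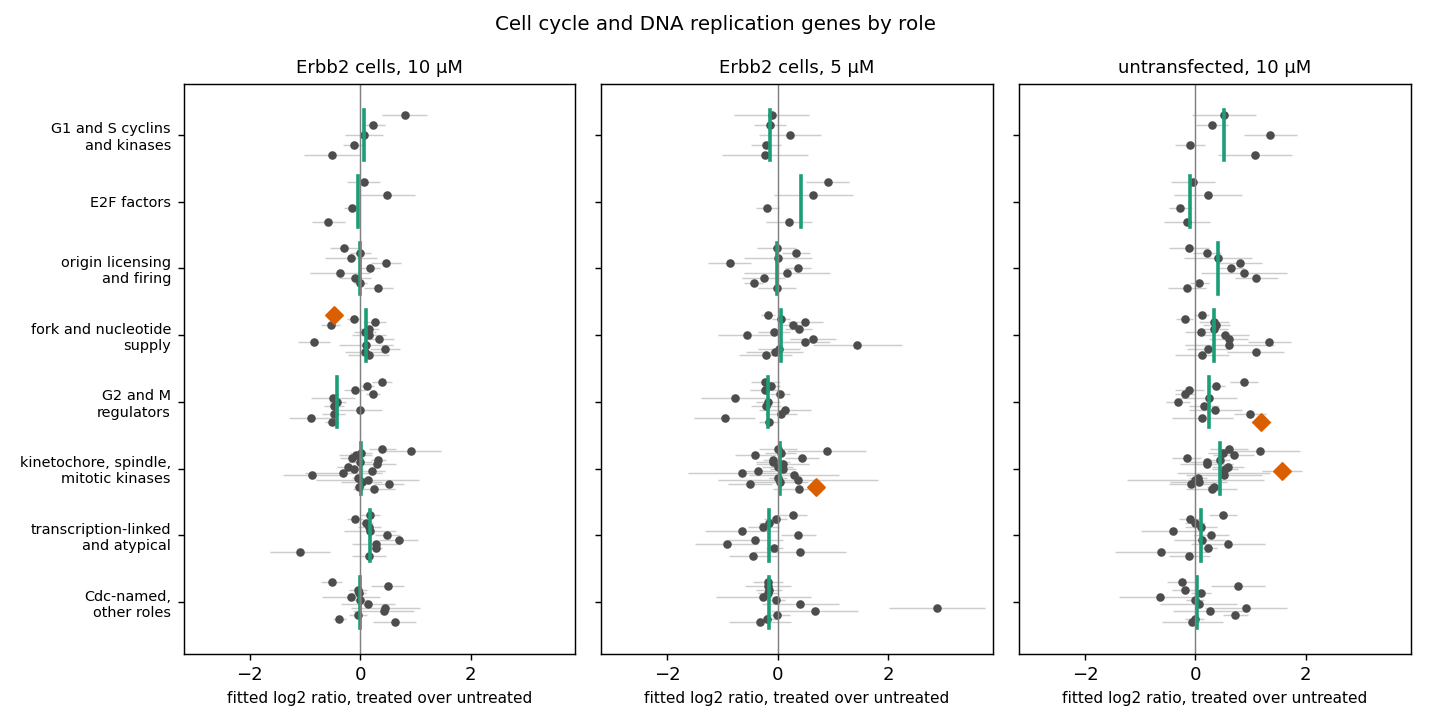
Fitted log2 ratio of treated over untreated cells for 84 of the 85 tested genes (points, grey bars ± SE) by role class, in 3 panels for Erbb2 cells at 10 µM, Erbb2 cells at 5 µM and untransfected cells at 10 µM, with the class median as a green line and genes past the threshold as orange diamonds; Mcm3ap, in no class, is not drawn. The medians of the fork, licensing and kinetochore classes are 0.10, 0.0026 and 0.02 in Erbb2 cells at 10 µM, and 0.34, 0.41 and 0.45 in untransfected cells.

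The last classes held genes taken in by family name whose main work was placed elsewhere, though some, such as Cdk7, also act on cycle kinases. The transcription-linked and atypical kinases had medians of 0.18 in Erbb2 cells at 10 µM, -0.16 in those at 5 µM and 0.11 in untransfected cells. Cdk7, which activates other cyclin-dependent kinases and works in transcription initiation, was their lowest gene in Erbb2 cells at 10 µM (-1.08 ± 0.54, n = 7) and in untransfected cells (-0.61 ± 0.84, n = 3), and their highest at 5 µM (0.40 ± 0.84, n = 3). Cdk20, at 0.70 ± 0.35 in Erbb2 cells at 10 µM, had 1 array at 3.55 above 7 others between -0.19 and 0.75. Cdk3 was lowest at 5 µM (-0.93 ± 0.57) and highest in untransfected cells (0.59 ± 0.67, n = 3), and Cdk18, a less studied relative, had -0.41 ± 0.58 there. Cdk5, best known from neurons, was the single member above 0 on all 8 arrays of Erbb2 cells at 10 µM, from 0.01 to 0.46 (0.29 ± 0.11, adjusted p = 0.364), which is 1 of 57 (1.75%) against 1.3% of all features.

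Cdc-named genes with other work had medians of -0.01 in Erbb2 cells at 10 µM, -0.16 in those at 5 µM and 0.03 in untransfected cells. Cdc42ep2, an effector of the cytoskeletal GTPase Cdc42, had the largest fitted value of all members, 2.88 ± 0.87 at 5 µM (n = 3, adjusted p = 0.419), from arrays at 5.07, 2.49 and 1.23. In untransfected cells it was at 0.92 ± 0.74, and the Cdc42-binding kinase Cdc42bpb at -0.65 ± 0.74, with 1 array at -2.97. Cdc73, of the Paf1 complex of transcription elongation, had 0.63 ± 0.39 in Erbb2 cells at 10 µM and -0.32 ± 0.55 at 5 µM. Cdc123, an assembly factor of translation initiation, had -0.51 ± 0.19 in Erbb2 cells at 10 µM, and Mcm3ap, a factor of mRNA export that is not a helicase subunit, had 0.45 ± 0.23 in untransfected cells.

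Taken as a list, the members lay near 0 in the Erbb2 cells and, with the dye label as given, above 0 in the untransfected cells. Their median log2 ratio was 0.03 in Erbb2 cells at 10 µM, -0.04 in Erbb2 cells at 5 µM and 0.24 in untransfected cells, beside medians over all features of -0.0034, -0.02 and 0.03. Among Erbb2 cells, 47 of 85 members at 10 µM and 37 of 85 at 5 µM were above 0. In untransfected cells 63 of 85 members (74.1%) were above 0, against 53.1% of all features, and 49 of the 61 in the 6 classes with a direct role in the cycle (80.3%, median 0.34). At 5 µM in the Erbb2 cells, 5 of 65 members (7.69%) were above 0 on every array, against 7.52% of all such features, and 11 of 65 (16.9%) below, against 10.1%. Members above 0 on all 4 untransfected arrays were 20 of 80 with all values (25%), against 11.9% of all such features, and 2 of 80 (2.5%), Cdc123 and Cdc25a, were below 0 on all 4, against 13.5%. At an unadjusted p under 0.05 there were 3 members higher and 10 lower in Erbb2 cells at 10 µM, 3 higher and 2 lower at 5 µM, and 13 higher and 0 lower in untransfected cells. Of all 12420 features, 602 were higher and 741 lower in Erbb2 cells at 10 µM, 384 higher and 402 lower at 5 µM, and 604 higher and 824 lower in untransfected cells. The 13 were Ccna2, Ccnb2, Cdk1, Cdk2 and Cks2 of the cyclins, kinases and their partners, Mcm4, Mcm6 and Rfc5 of replication, Cenpe, Cenpp, Cenps and Haus4 of the kinetochore and spindle, and Cdc42ep5, an effector of Cdc42.

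By array, the Erbb2 and untransfected medians overlapped at 1 untransfected array, array 3. In Erbb2 cells the member medians ran from -0.14 to 0.14 at 10 µM and from -0.16 to 0.02 at 5 µM. On the untransfected arrays they were 0.23 and 0.29 with treated cells in Cy5 and 0.08 and 0.31 with treated cells in Cy3, and the medians of all features lay between -0.001 and 0.033. The untransfected values rest on the dye label of its arrays. If that label is wrong, the median is -0.24 with 22 of 85 members above 0, 2 of 80 members lie above 0 and 20 below on every array, and 0 are higher and 13 lower at an unadjusted p under 0.05. The shares of all features then change sides too, to 13.5% above and 11.9% below 0 on every array. At that unadjusted level 824 of 12420 features become higher and 604 lower. No test was made of the list, since its genes were chosen with results of these data known.

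**Figure D3:**
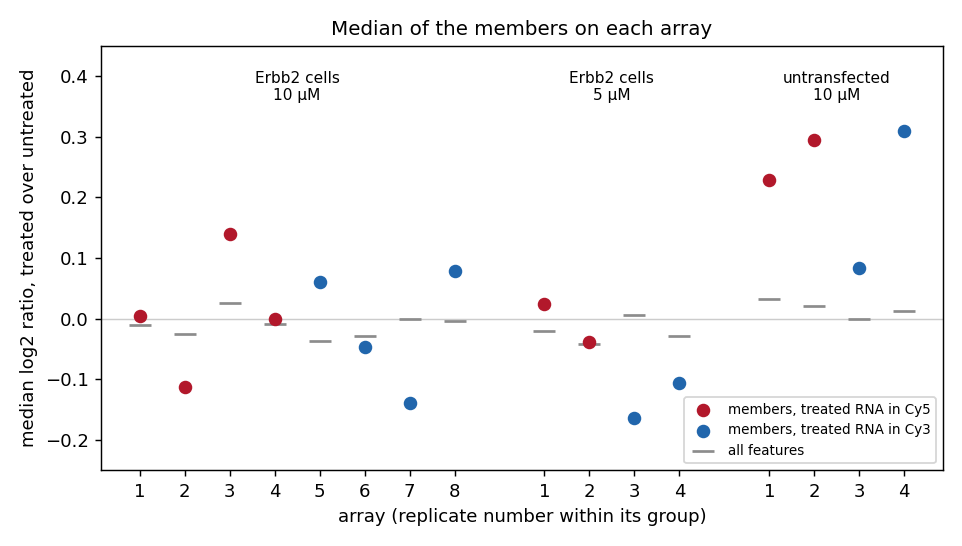
Median log2 ratio of the member genes on each array (points, coloured by the dye of the treated RNA), beside the median over all features (grey dashes), for the 8 arrays of Erbb2 cells at 10 µM, the 4 at 5 µM and the 4 of untransfected cells. The Erbb2 points lie between -0.16 and 0.14, and the 4 untransfected points between 0.08 and 0.31, which turn to below 0 if their dye label is wrong.

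The comparison of lines at 10 µM, Erbb2 cells minus untransfected cells, asks whether the transfected cells respond differently. Cks2 differed by -1.69 ± 0.22 (95% interval -2.16 to -1.23, adjusted p = 0.000944), a 3.23-fold lower ratio in the Erbb2 cells, and it was the 1 member of 85 that passed, where 0.813% of all features did (0.185% lower, 0.628% higher). Rfc5 (-2.18 ± 0.49, adjusted p = 0.0728), Cdk1 (-1.47 ± 0.35, adjusted p = 0.0871) and Pcna (-0.60 ± 0.16, adjusted p = 0.129) came next by adjusted p and did not pass. At an unadjusted p under 0.05 there were 0 members higher and 12 lower in the Erbb2 cells, beside 661 higher and 546 lower of all 12420 features. The members' median difference was -0.21, with 27 of 85 above 0, beside a median of -0.03 over all features.

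Cdk1, Cks2, Haus4 and Pcna were lower on all 8 Erbb2 arrays at 10 µM than on any untransfected array, 4 of 55 members with all values (7.27%), against 1.1% of all such features, and 0 of 55 were higher, against 2.8%. For Pcna the probe with the larger change, 4818, passed when probes were kept apart (-0.90 ± 0.17, adjusted p = 0.0163), and probe 10276 did not (-0.29 ± 0.18, adjusted p = 0.66). The arrays of probe 10276 overlapped between the lines. For the Mcm2 to Mcm7 helicase 0 of 6 differences lay above 0, from -1.25 to -0.07. This comparison rests on the dye label. With the untransfected arrays turned the other way the members' median difference is 0.38 with 63 of 85 above 0. The Cks2 difference is then 0.69 (adjusted p = 0.152). At an unadjusted p under 0.05, 14 members are higher and 3 lower, and 4 of 55 are higher and 1 lower without overlap. No shares over all features are given for these counts in that setting, so they cannot be set against a background. At the adjusted threshold (limma) 2 of 85 members passed, both higher, beside 351 of 12420 features, 72 higher and 279 lower.

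**Figure D4:**
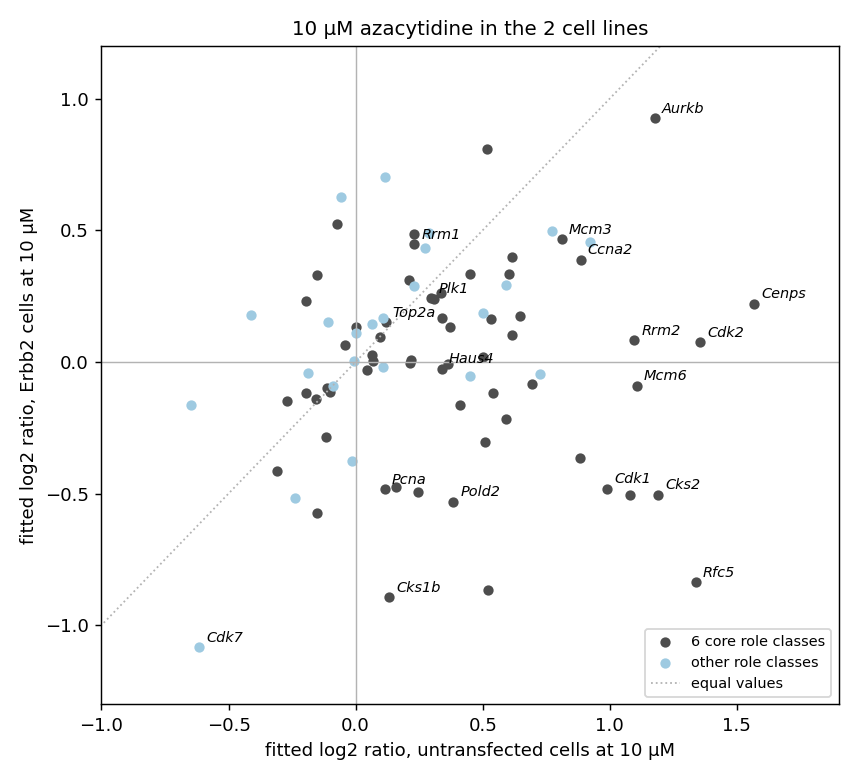
Fitted log2 ratio of each tested gene in Erbb2 cells at 10 µM (vertical axis) and in untransfected cells at 10 µM (horizontal axis), dark points for the 6 classes with a direct role in the cycle, light points for the others, and a dotted line of equal values. With the dye label as given, most dark points lie right of and below the line, with Cks2 at -0.50 and 1.19, Cdk1 at -0.48 and 0.99, and Rfc5 at -0.84 and 1.34.

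The comparison of doses in the Erbb2 cells, 10 µM minus 5 µM, gave 0 members past the threshold in the limma fit and 0 of 12420 features (0.0%). At an unadjusted p under 0.05 there were 1 higher and 4 lower members, and 538 features. Haus4 had the smallest adjusted p of the members (-0.71 ± 0.16, 95% interval -1.05 to -0.38, adjusted p = 0.682). Pold2 (-0.81 ± 0.30), Rfc5 (-1.33 ± 0.54) and Cdc42ep2 (-2.43 ± 1.09) were lower and Mcm3 (1.34 ± 0.48) higher at 10 µM at that unadjusted level, each with an adjusted p of 0.998. Haus4 and Pcna were lower on all 8 arrays at 10 µM than on any at 5 µM, 2 of 52 members (3.85%), against 0.322% of all such features. For Pcna this held for the mean of its probes and probe 4818, and not for probe 10276. The Pcna difference was -0.30 ± 0.16, with an interval from -0.64 to 0.04, so an equal response at both doses is within it.

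Further cycle genes outside the name rule, a list of 101 that holds condensins, cohesins, GINS subunits, kinesins and checkpoint kinases among others, gave 60 tested genes. None passed in Erbb2 cells at either dose, where 1.26% of all features did at 10 µM and 0.209% at 5 µM. At an unadjusted p under 0.05 (limma) there were 5 genes at 10 µM and 2 at 5 µM, beside 1343 and 786 of all 12420 features. In untransfected cells 9 genes were higher and 3 lower at that level, beside 604 and 824 features. Of the list, 2 passed there as higher and 1 as lower, where 0.596% of all features were called higher and 2.13% lower. Ncapg, a condensin subunit that compacts mitotic chromosomes, rose (1.28 ± 0.20, adjusted p = 0.00194), as did Anln, the anillin of the cleavage furrow (1.45 ± 0.31, adjusted p = 0.0179). Gins3, a subunit of the GINS complex that joins the Mcm helicase at the fork, fell (-0.95 ± 0.16, adjusted p = 0.00398). The list's medians were 0.02 in Erbb2 cells at 10 µM, -0.06 in those at 5 µM and 0.16 in untransfected cells. In the last 38 of 60 (63.3%) were above 0, against 53.1% of all features.

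Markers of cell type moved in the same arrays. Of 7 tested fibroblast markers 0 passed in Erbb2 cells at 10 µM or 5 µM (limma, unadjusted p under 0.05 in 1 and 2), with the list between -0.28 and 0.44 at 10 µM and between -0.61 and 0.99 at 5 µM. In untransfected cells 3 of the 7 fell, Fn1 (-1.63 ± 0.20), Col1a2 (-0.79 ± 0.19) and Vim (-0.55 ± 0.14), with the list between -1.63 and 0.51. The Vim call was at the edge of the threshold (limma, adjusted p = 0.0493). In Erbb2 cells Vim had -0.28 ± 0.10 at 10 µM and -0.61 ± 0.14 at 5 µM without passing. Of 4 blood markers Cd5 rose in Erbb2 cells at 10 µM (1.29 ± 0.10) and at 5 µM (1.35 ± 0.14), and Tyrobp fell in untransfected cells (-0.68 ± 0.16). Among Erbb2 arrays Cd68 (-0.59 and -0.66 by falling dose) and Tyrobp (-0.10 and -0.18) lay below 0, and Ptprc (0.01 and 0.10) above, none passing. Of 4 epithelial markers Krt8 rose in untransfected cells (1.13 ± 0.27), where 3 of the 4 lay above 0. Epcam was below 0 there (-0.295 ± 0.18) and did not pass. No epithelial marker passed in Erbb2 cells. Of all features, 1.26% passed in Erbb2 cells at the higher dose, 0.209% at the lower and 2.73% in the untransfected line. Ratios give no levels, so the label of the cells could not be checked against absent markers. The part of the marker changes in the members' values was not tested.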

How the data were processed

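Ratios of 20355 probes were read from 16 2-colour arrays. The authors deposited 1 ratio per probe and array, of which no log base, numerator dye or normalization is given in the sources used here. On each array 72 to 167 cells share the highest value. It was read as log2 of a placeholder of 100000 plus that array's offset, and set to missing. This reading defines the offset and cannot itself show the log base. With the offset removed, 3.38% to 5.35% of values per array lay at log2 of a ratio of whole numbers up to 5. After a shift of 0.05 it was 0.65% to 0.93%, and the values were therefore taken as log2 ratios. Array medians lay between -0.03 and 0.053, so the deposited log2 ratios were already centred; precision depends on how many arrays a group has. Arrays with treated RNA in Cy3, per the labels, were turned.

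A probe was kept with 3 values in each group of 4 and 6 in the group of 8, and probes of a gene were averaged (12420 features). A linear model with 3 groups and a shared dye term was fitted on all 16 arrays with limma 3.58.1 (R 4.3.3), with two-sided p-values adjusted by Benjamini-Hochberg over all features and called under 0.05. The fit was tested on simulated data. Alternatives in turning, dye term, scaling, weights, filters, probes and arrays left out were tried.

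The members, lists and tests were chosen with earlier results of these data known. The rule named every member called in a group or contrast, the top 3 and bottom 3 of a group among members with values on all its arrays, the ends of each role class, and Pcna, Cks2, Haus4, Top2a, Plk1, Rrm1 and Rrm2. Other members named with values, such as Cdk1, Cdk5, Bub3, Mcm2 and Mcm7, were chosen after their values were seen. Probes were named through the platform annotation, where 14030 have 1 symbol, 5 several and 6320 none, and 13994 matched a gene of the mouse reference. Protein sequences were not used here.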

Additional observations from a re-analysis of the deposited data

Results flagged for a closer look

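Of 111 groups of values of the named genes examined, 8 held an array far from the others, and chance alone flags about 5% of groups, or about 1 in 20. In Erbb2 cells at 10 µM these were an array at 5.12 for Aurkb, at 3.55 for Cdk20, at 2.57 for Prim1, at 2.21 for Rpa1 and at 3.13 for Rrm1, all log2 ratios. In untransfected cells they were an array at -2.97 for Cdc42bpb, at -0.82 for Cenpu and at -2.57 for Top2a. The fitted values of these 8 genes in those groups did not pass the threshold.

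The response of Cks2 differed between the lines by -1.69 on the log2 scale, Erbb2 cells minus untransfected cells at 10 µM (adjusted p = 0.000944, limma), with -0.50 in Erbb2 cells and 1.19 in untransfected cells. The 8 Erbb2 arrays and the 4 untransfected arrays did not overlap, and the sign in the untransfected cells rests on their dye label.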

How the results depend on the processing

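Member counts past the threshold were 1 in Erbb2 cells at 10 µM, 1 at 5 µM, 2 in untransfected cells, 0 between doses and 1 between lines. All 12420 features gave 157, 26, 339, 0 and 101 in that order. With no array turned for its dye the member counts were 0 in every comparison, beside 2, 0, 4, 0 and 0 features. The member medians were then 0.0788 at 5 µM and 0.0668 in untransfected cells, where Cks2 had -0.0352. Haus4 then had -0.0335 at 5 µM. With each group fitted on its own arrays the member counts were 0, 0 and 0, beside 22, 0 and 0 features. With the untransfected arrays turned the other way, the median there was -0.2438, Cenps -1.57 and Cks2 -1.19. The Cks2 difference between lines was then 0.685. Between lines 2 members passed, both higher in Erbb2 cells, beside 351 features, 72 higher and 279 lower. Without the dye term 1 member passed in untransfected cells, beside 323 features. With at least 2 values per group 0 members passed at 5 µM and 1 in untransfected cells, beside 5 and 285 of 14615 features. Array quality weights gave 2 at 10 µM, 4 in untransfected cells and 2 between lines, beside 148, 469 and 131 features. A value on every array (46 members) gave 3, 2 and 5 in the 3 groups and 4 between lines. Of 7148 features 247, 73, 474 and 189 passed in that setting. Probes kept apart (109) gave 2, 0 and 5, and 2 between lines, beside 177, 16, 443 and 146 of 14813. A common spread gave 2 between lines, beside 130 features. Without arrays 3, 5 and 6 of Erbb2 cells at 10 µM the member counts were 0 at 10 µM, 0 at 5 µM and 2 between lines. The features were 57, 22 and 75. With values at small whole ratios set to missing, an alternative chosen after seeing the data, 2 members passed at 10 µM and 2 between lines. Of 11369 features 179 and 102 did. The cause of these shifts was not tested.

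Leaving out 1 array gave member counts of 0 to 2 in Erbb2 cells at 10 µM, 0 to 0 at 5 µM, 1 to 3 in untransfected cells, 0 between doses and 1 to 2 between lines. Over all 12420 features they ran from 103 to 145, 5 to 24, 213 to 372, 0, and 60 to 105 in that order. Member medians ran from -0.0023 to 0.0915, from -0.0957 to -0.0208, and from 0.2008 to 0.3838, the last without untransfected replicate 3. The member count at 10 µM was 0 without replicate 1 or 4 of that group, and 2 without its replicate 5 or without untransfected replicate 4. The count in untransfected cells was 1 without its replicate 1 or 3, or without replicate 1 or 2 at 5 µM. Between lines it was 2 without replicate 1 or 3 of Erbb2 cells at 10 µM. Over 29 alternatives Pcna kept its call in 24, Haus4 in 9, Cks2 in 26 and its difference between lines in 27, and Cenps in 16 of 28.

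Equal replicate numbers were not used to pair the arrays, and 0 of 12 pairs of same-numbered arrays correlated above 0.1 (-0.0281 to 0.0383). Same-dye arrays of 1 group also correlated weakly (mean r 0.0306 to 0.135), so these values cannot tell whether equal numbers pair the arrays. With the replicate block as a random term (consensus correlation 0.06949) the member counts were 1, 1, 2, 0 and 1, beside 156, 25, 335, 0 and 106 of 12420 features. The member medians were 0.0272, -0.0474 and 0.2749, and no call among the 4 genes was lost.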
